A study of Mus musculus with 9 samples.

Results

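The 10 lysosomal cathepsins followed here were the serine carboxypeptidase Ctsa, the aspartic protease Ctsd and the cysteine proteases Ctsb, Ctsc, Ctsf, Ctsh, Ctsk, Ctsl, Ctss and Ctsz. They were chosen by symbol from 55401 gene IDs, and all 10 were found and passed the filter on low counts, as did 13501 genes in all. Their transcripts were measured by poly(A) RNA sequencing in primary mouse peritoneal macrophages that had been drawn out with thioglycollate, an irritant, and kept in DMEM with 10% fetal bovine serum. The 9 libraries fell into 3 genotypes of 3 libraries each: SE (Stat6S807E/S807E, glutamate at residue Ser807 of both copies of the transcription factor STAT6), SA (Stat6S807A/S807A, alanine at that residue) and WT. Glutamate carries a negative charge and often stands in for a phosphate, while alanine cannot be phosphorylated. Both substitutions were in the mice themselves, so every cell type of a mutant donor carried them. Strain, age and sex were not given in the sources used here, nor whether the libraries of a genotype came from separate mice or pools; the p-values therefore cover only the variation among the libraries at hand, which may be technical. By its title, the series is about macrophage senescence and phosphorylation of STAT6 at Ser807, and the comparisons here asked how the cathepsin transcripts differed between each mutant and WT and between the mutants.

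Cathepsins are made as inactive proenzymes, tagged with mannose 6-phosphate in the Golgi, carried to the lysosome by mannose 6-phosphate receptors or sortilin, and activated there at low pH. Macrophages hold them at high levels and use them to break down engulfed material, to trim antigens and the invariant chain for MHC class II, and, when secreted, to cut matrix proteins. Cystatins and stefins are natural inhibitors of the cysteine cathepsins.

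In SA macrophages Ctsl and Ctsd transcripts fell and Ctsc transcripts rose relative to WT. In SE macrophages none of the 10 passed the test against WT. Set directly against SA, SE macrophages had more Ctsl, Ctsd, Ctsk and Ctsz transcript and less Ctsc transcript. The Ctsk and Ctsz calls were lost in 6 and 7 of 17 alternative settings, and the Ctsc call in SA vs WT in 3. The changes of the members that passed lay between 1.24-fold and 1.44-fold. Ctsb and Ctss, the members with the highest raw counts, did not pass in any comparison.

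Library totals ran from 17286617 to 24618608 counts. Levels are in CPM on TMM-scaled library sizes, and errors of levels are SDs over n = 3 libraries. Where SE stands before a number in parentheses, it is the standard error of the log2 change, not the genotype. It was derived from that change and the edgeR test statistic. The targeted gene, Stat6, averaged 296.0 ± 14.6 CPM in SE, 198.0 ± 2.92 CPM in SA and 195.4 ± 7.53 CPM in WT, and passed the test in SE vs WT (1.51-fold, edgeR adjusted p = 6.27e-06). A change of 1 residue is not visible in gene counts, so these values do not check the genotype labels. The macrophage markers (7 of 7 tested) summed to 18153–20890 CPM in SE, 18289–19033 CPM in SA and 18149–23278 CPM in WT, mostly from Lyz2 and Csf1r. Within that list Mertk and Fcgr1 fell in SE vs WT by 0.34 and 0.30 on the log2 scale, and Fcgr1 fell in SE vs SA by 0.54 (edgeR adjusted p = 0.0195, 0.0157 and 6.44e-05). DESeq2 called 4 of the 7 lower in SE vs WT, where it called 363 genes higher and 388 lower in the whole table. The number of genes that DESeq2 adjusted over is not given. On the third principal component of all tested genes, which held 14.6% of the variance, libraries WT2 and SE3 lay at -16.2 and -17.1 while WT1 and SE2 lay at 13.3 and 14.8, so members were also examined without these libraries.

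**Figure D1:**
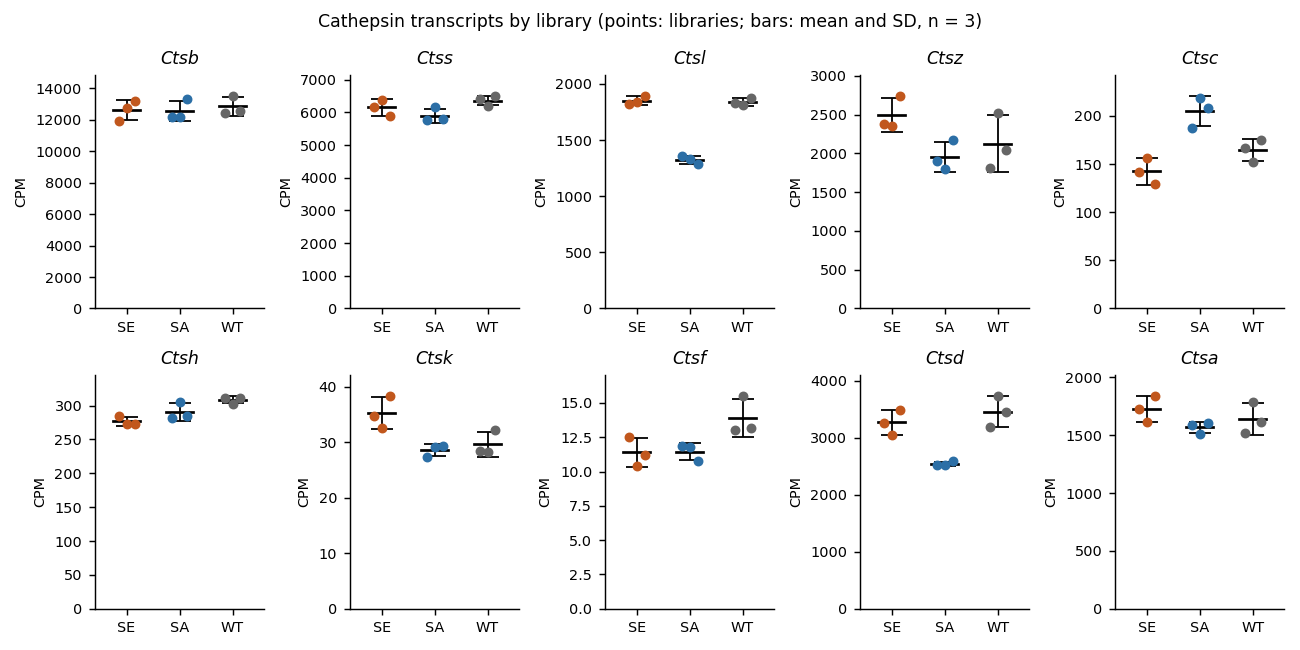
Transcript level in CPM (y axis, from 0) of each of the 10 cathepsins in the SE, SA and WT libraries (x axis); each point is a library, and bars give the mean and SD, n = 3. The 3 SA libraries lie apart from the other libraries for Ctsl and Ctsd (below) and for Ctsc (above), while Ctsb and Ctss show nearly level groups.

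Ctsl, an endopeptidase (cathepsin L) that works across lysosomal protein turnover, lies on chr13:64359337-64370890 on the minus strand (mm10, GENCODE M21). It had 1821, 1840.1 and 1894 CPM in SE, 1356, 1328 and 1283 CPM in SA, and 1829, 1812 and 1874 CPM in WT. All SA libraries were below all others, and the SE and WT libraries overlapped. In SA vs WT, Ctsl fell by 0.48 on the log2 scale (SE 0.05, 1.39-fold lower, edgeR adjusted p = 2.84e-05). Between the mutants, SE vs SA, it rose by 0.49 (SE 0.05, 1.40-fold, edgeR adjusted p = 1.64e-05). Its log2 change in SE vs WT was 0.01 with a 95% interval from -0.10 to 0.12 (edgeR adjusted p = 0.948). Ctsl also varied little among replicates, with a coefficient of variation of 2.05% in SE, 2.79% in SA and 1.74% in WT.

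Ctsd, the main aspartic protease of the lysosome, lies on chr7:142375911-142388038 on the minus strand. It had 3264, 3043 and 3493 CPM in SE, 2519, 2515 and 2585 CPM in SA, and 3189.5, 3729 and 3444 CPM in WT. As for Ctsl, the SA libraries were below all others and the SE and WT libraries overlapped. Ctsd fell in SA vs WT by 0.44 on the log2 scale (SE 0.07, 1.36-fold lower, edgeR adjusted p = 0.000523), and in SE vs SA it rose by 0.36 (SE 0.07, 1.29-fold, edgeR adjusted p = 0.002). Its SE vs WT log2 change was -0.08 (95% interval -0.22 to 0.06, edgeR adjusted p = 0.579).

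Ctsc, also called dipeptidyl peptidase I, activates the granule serine proteases of neutrophils, mast cells and cytotoxic lymphocytes. It lies on chr7:88278085-88310888 on the plus strand. Ctsc had 142, 157 and 129 CPM in SE, 188, 219 and 209 CPM in SA, and 167, 153 and 175 CPM in WT. It moved the other way from Ctsl and Ctsd, with every SA library above all others and the highest SE library between the WT ones. Ctsc rose in SA vs WT by 0.31 on the log2 scale (SE 0.08, 1.24-fold, edgeR adjusted p = 0.0251), and in SE vs SA it fell by 0.53 (SE 0.08, 1.44-fold lower, edgeR adjusted p = 0.000257). The SA vs WT call was lost without WT2, SA2 or SA3, where the highest edgeR adjusted p was 0.149. In SE vs WT its log2 change was -0.21 (SE 0.08, edgeR adjusted p = 0.139), and it passed without WT2 and with no filter on low counts (lowest edgeR adjusted p = 0.0414).

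Counts of the 10 members stood against the whole table as follows. In SA vs WT, 1 member rose and 2 fell, against 1.97% of all tested genes called higher and 2.1% called lower, and the members' median log2 change was -0.10 beside 0.001 for all genes. In SE vs WT, 0 members passed, against 2.35% called higher and 2.69% called lower among all tested genes. At an unadjusted p under 0.05, 2 members were higher and 3 lower in SE vs WT by edgeR, and DESeq2 also called 0 members at its adjusted threshold. The share of all tested genes at an unadjusted p under 0.05 is not given, so unadjusted counts, here and below, have no background. In SE vs SA, 4 members rose and 1 fell, against 4.77% called higher and 5.42% called lower, with a median log2 change of 0.10 beside -0.003 for all genes. The background calls in SE vs SA were 644 higher and 732 lower with TMM scaling, and 473 higher and 925 lower when libraries were scaled by their totals alone. With that scaling 3 members passed, Ctsl and Ctsd as higher and Ctsc as lower. SA vs WT and SE vs SA share the SA libraries, and each comparison with WT shares the WT libraries, so their values are not independent.

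**Figure D2:**
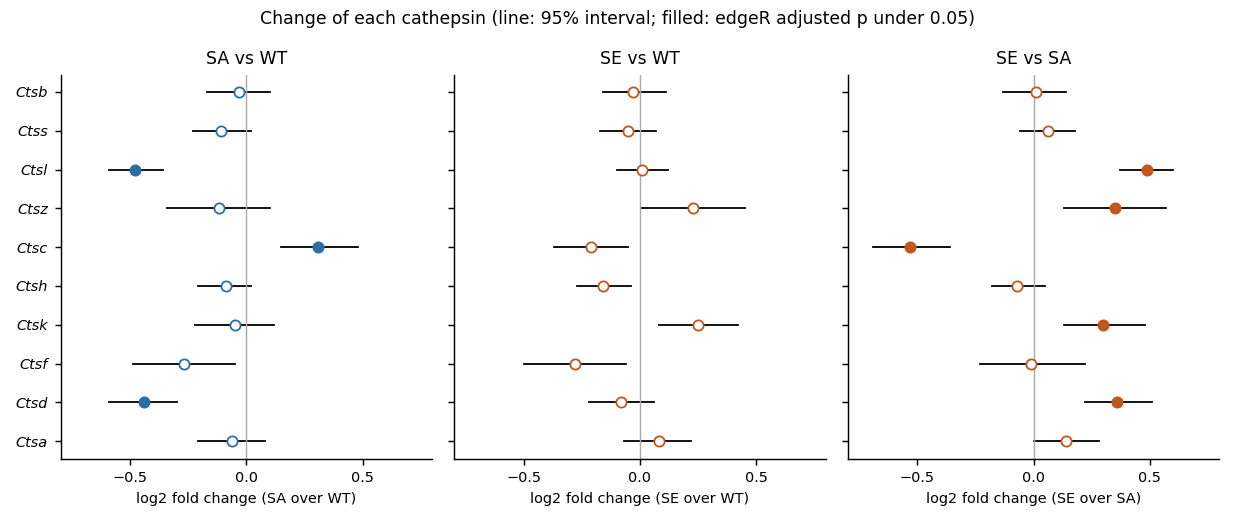
Log2 fold change (x axis) of each cathepsin (rows) in SA vs WT, SE vs WT and SE vs SA, from edgeR; lines are 95% intervals and filled points have an adjusted p under 0.05. Ctsl and Ctsd lie at -0.48 and -0.44 in SA vs WT and near 0 in SE vs WT, and Ctsc lies at 0.31 and -0.21.

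Ctsk, a collagen-cutting protease best known from osteoclasts, lies on chr3:95499256-95509362 on the plus strand. It had 34.8, 32.6 and 38.3 CPM in SE, 27.3, 29.2 and 29.3 CPM in SA, and 28.4, 28.2 and 32.3 CPM in WT. All SE libraries were above all others, by a margin of less than 1 CPM over the highest WT library. Ctsk rose in SE vs SA by 0.30 on the log2 scale (SE 0.08, 1.24-fold, edgeR adjusted p = 0.0232). Against WT the change of 0.25 (SE 0.08) did not pass (edgeR adjusted p = 0.0878). The SE vs SA call was lost without SA1, SA2, SA3, SE1 or SE3 and with scaling by library totals (highest edgeR adjusted p = 0.118).

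Ctsz, a carboxypeptidase also called cathepsin X, lies on chr2:174427493-174439039 on the minus strand. It had 2382, 2358 and 2742 CPM in SE, 1896, 1801 and 2174 CPM in SA, and 1810.2, 2523 and 2044 CPM in WT. The SE libraries were all above the SA libraries, and the WT libraries spread over both groups, with a coefficient of variation of 17.1%, the widest of any member in any group. Ctsz rose in SE vs SA by 0.35 on the log2 scale (SE 0.10, 1.27-fold, edgeR adjusted p = 0.0445). This call was lost with scaling by library totals and without WT3, SA1, SA2, SE1, SE2 or SE3 (highest edgeR adjusted p = 0.186). Against WT the SE change was 0.23 (SE 0.10, edgeR adjusted p = 0.251), and it passed without WT2, without WT2 and SE3 together, and with no filter (lowest edgeR adjusted p = 0.0104).

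WT2 was the library where Ctsz stood furthest from its group, at 0.39 above the mean of the other WT libraries on the log2 scale. On that measure Ctsa and Ctsd lay 0.19 and 0.17 above in WT2 and Ctsc 0.16 below. SE3 had Ctsz and Ctsd at 0.21 and 0.15 above the mean of the other SE libraries and Ctsc at 0.21 below. Without WT2 and SE3 together, the log2 change in SA vs WT was -0.48 for Ctsl, -0.38 for Ctsd and 0.26 for Ctsc (edgeR adjusted p = 2.88e-08, 4.13e-06 and 0.00439). For SE vs SA it was then 0.47 for Ctsl, 0.31 for Ctsd, 0.24 for Ctsk, 0.28 for Ctsz and -0.46 for Ctsc, all at an edgeR adjusted p of 0.0357 or lower. In the same fit Ctsz rose in SE vs WT by 0.30 (edgeR adjusted p = 0.0111). Without WT1 and SE2 together that change was 0.16 (edgeR adjusted p = 0.527). Ctsl, Ctsd and Ctsc were then at -0.48, -0.50 and 0.33 in SA vs WT (edgeR adjusted p = 0.000116, 0.000118 and 0.0301). The libraries left out were picked by their place on a component of these same data. That choice can narrow the spread, so the p-values without them are not separate support. The call of Ctsl and Ctsd in SA vs WT, and of Ctsl, Ctsd and Ctsc in SE vs SA, held in each of the 17 alternatives run.

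Ctss and Ctsb were the most abundant members per length. Ctss, the elastin-cutting protease that trims the invariant chain in antigen-presenting cells, had 6176, 6389.7 and 5886 CPM in SE, 5772, 6149.6 and 5784 CPM in SA, and 6396, 6199 and 6485 CPM in WT. Every SA library was below every WT library, but the log2 change of -0.11 did not pass (95% interval -0.23 to 0.02, edgeR adjusted p = 0.466). Ctsb, which acts as both an endopeptidase and a carboxypeptidase, had 11943 to 13174 CPM in SE, 12203 to 13289 CPM in SA and 12443 to 13525 CPM in WT, and all groups overlapped. Its 95% intervals ran from -0.17 to 0.10 in SA vs WT, from -0.16 to 0.11 in SE vs WT and from -0.13 to 0.14 in SE vs SA.

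Ctsh, an aminopeptidase, had 284, 273 and 273 CPM in SE, 281, 305 and 285 CPM in SA, and 312, 303 and 312 CPM in WT. All SE libraries were below all WT libraries, yet the log2 change of -0.16 (SE 0.05) did not pass (edgeR adjusted p = 0.114). Ctsf, which has been linked to invariant-chain processing in macrophages, was the least abundant, with 12.6, 10.4 and 11.2 CPM in SE, 11.9, 11.8 and 10.7 CPM in SA, and 13.0, 15.5 and 13.2 CPM in WT. Both mutants lay below WT in every library, with log2 changes of -0.28 in SE vs WT and -0.27 in SA vs WT that did not pass (edgeR adjusted p = 0.153 and 0.212). Ctsa, a carboxypeptidase that also protects neuraminidase and beta-galactosidase in the lysosome, had 1725, 1617 and 1837 CPM in SE, 1589.7, 1513 and 1601 CPM in SA, and 1518, 1787 and 1609.9 CPM in WT. Its SE and SA libraries did not overlap, and the log2 change of 0.14 did not pass (edgeR adjusted p = 0.233).

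Level per length depended on the length taken. Over the union of annotated exons, Ctss averaged 4529 ± 186 CPM per kilobase in SE, 4346 ± 158 in SA and 4683 ± 108 in WT, and ranked 5th in SE, 4th in SA and 3rd in WT among 13489 ranked genes. Ctsb followed with 2086, 2077 and 2124 CPM per kilobase in SE, SA and WT. Ctsz and Ctsd came next, and they overlapped in WT (1475 ± 252 and 1469 ± 115 CPM per kilobase). Ctsa, Ctsl and Ctsh were at 366, 285 and 61.5 CPM per kilobase in SE. Ctsc and Ctsk were at 24.5 and 23.3 CPM per kilobase in SE, where they overlapped, and at 35.3 and 18.9 in SA, where they did not. Ctsf was lowest, at 2.26 CPM per kilobase in SE, 2.27 in SA and 2.76 in WT.

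**Figure D3:**
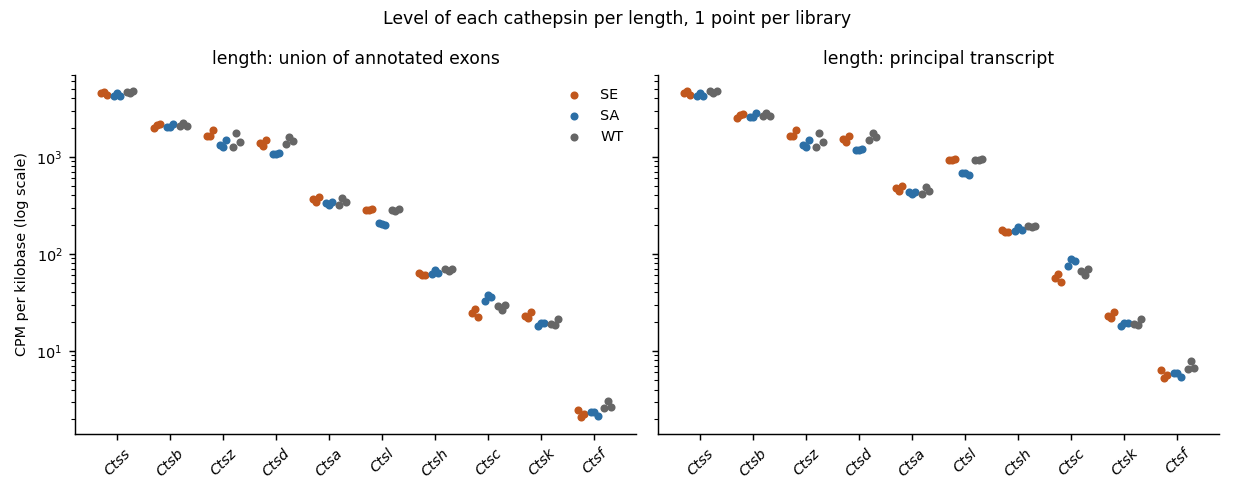
Level in CPM per kilobase (y axis, log scale) of each cathepsin (x axis), 1 point per library, with SE, SA and WT from left to right; the length is the union of annotated exons (left) or the principal transcript (right). Ctss and Ctsb lead on both, and Ctsl moves from below Ctsa to above it when the principal transcript is used.

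The largest shift with the length taken was that of Ctsl. The union of its annotated exons is 6489 bases, and its principal transcript is 1971 bases. With the principal transcript, a length chosen after seeing the data, Ctsl had 924 to 961 CPM per kilobase in SE, 651 to 688 in SA and 919 to 951 in WT, above Ctsa in every library (444 to 504 in SE, 415 to 439 in SA and 416 to 490.2 in WT). Ctsh, Ctsc and Ctsf also stood higher with it, at 171, 57.1 and 5.75 CPM per kilobase in SE, and Ctsc and Ctsk (23.3) then no longer overlapped in SE. Ctsz and Ctsd then overlapped in SE as well as in WT. The comparisons between genotypes do not depend on length.

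The 10 members together took 2.76%, 2.83% and 2.85% of library counts in SE, 2.63%, 2.67% and 2.74% in SA, and 2.82%, 2.92% and 2.86% in WT. Every SA library was below every SE and WT library. Ratios of raw counts within a library need no scaling between libraries. The ratio of Ctsl to Ctss counts was 0.295, 0.288 and 0.322 in SE, 0.235, 0.216 and 0.222 in SA, and 0.286, 0.292 and 0.289 in WT. The ratio of Ctsd to Ctsb counts was 0.273, 0.239 and 0.265 in SE, 0.206, 0.206 and 0.195 in SA, and 0.256, 0.276 and 0.274 in WT. In both ratios the SA libraries were below all others. The ratio of Ctsc to Ctsl counts was 0.0779, 0.0850 and 0.0681 in SE, 0.139, 0.165 and 0.163 in SA, and 0.0914, 0.0842 and 0.0932 in WT, with the SA libraries above all others. The ratio of Ctsl to Ctsd was 0.542 to 0.605 in SE, 0.496 to 0.538 in SA and 0.486 to 0.573 in WT; the WT libraries overlapped both mutants, and the SE libraries lay just above the SA libraries.

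**Figure D4:**
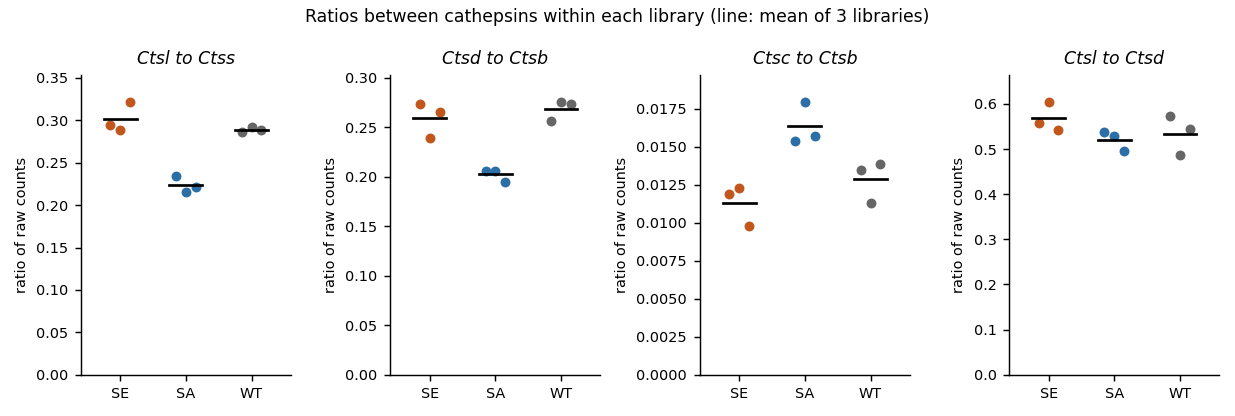
Ratio of raw counts (y axis, from 0) between pairs of cathepsins within each SE, SA and WT library; lines are means of 3 libraries. SA libraries lie lowest for Ctsl to Ctss and Ctsd to Ctsb and highest for Ctsc to Ctsb, and for Ctsl to Ctsd the WT libraries overlap both mutants, while the lowest SE library (0.542) lies just above the highest SA library (0.538).

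Promoter windows, the 250 bases before each RefSeq start (GRCm38.p6), were available for 8 of the 10 members and numbered 9, since Ctsa has a pair of starts; Ctsb and Ctsh had none. They were searched for CACGTG, the core bound by the TFEB, TFE3 and MITF family that drives many lysosomal genes, and for TTCNNNNGAA and TTCNNNGAA, the spacings bound by STAT6 and by other STAT proteins. Each motif reads the same on both strands. CACGTG stood in 4 of 9 windows, against 1978 of all 32851 windows (6.02%). The stretches are shown because Ctsl and Ctsd, which both fell in SA, hold the motif, and so do Ctsa and Ctsf, which did not pass in any comparison. Each is written on the gene's strand, with the motif in capitals:
Ctsl, chr13:64370739-64370768, minus strand, 236 bases before the start: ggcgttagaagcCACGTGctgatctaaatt
Ctsd, chr7:142388055-142388077, minus strand, 245 bases before: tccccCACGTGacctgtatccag
Ctsd, chr7:142387908-142387937, minus strand, 98 bases before: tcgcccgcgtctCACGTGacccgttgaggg
Ctsa, chr2:164833749-164833772, plus strand, 12 bases before its inner start: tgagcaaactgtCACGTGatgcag
Ctsf, chr19:4855074-4855103, plus strand, 79 bases before: caccccgtggtcCACGTGcctcgcgtaaat

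TTCNNNNGAA stood in 0 of 9 member windows, against 5.85% of all windows. TTCNNNGAA stood in 1 of 9, against 7.02% of all windows. With 9 windows, neither count can be told apart from its share of all windows. The window that held TTCNNNGAA was that of Ctsc:
Ctsc, chr7:88277839-88277867, plus strand, 236 bases before: agctttggcgTTCCTTGAAaggcagaggt
No match overlapped another motif. RefSeq starts lay 370 bases inside the GENCODE gene for Ctsl, 211 for Ctsd, 900 for the inner start of Ctsa and 35 for Ctsf, so the windows of Ctsl and of the inner Ctsa start lie wholly inside their GENCODE genes and those of Ctsd and Ctsf in part. The printed Ctsa stretch (24 of 24 bases) and the Ctsd stretch 98 bases before the start (30 of 30) are exonic in GENCODE, as are 15 of the 30 bases of the Ctsl stretch. A match describes the letters only, since binding was not measured here.

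Among the factors that read CACGTG, Tfeb averaged 135 ± 7.88 CPM in SE, 126 ± 5.26 CPM in SA and 126 ± 10.4 CPM in WT, and Tfe3 averaged 220 ± 7.51, 217 ± 5.73 and 216 ± 4.01 CPM in SE, SA and WT. Neither they nor Mitf passed in any comparison; Tfec, of the same family, passed in SE vs SA. Of 12 transcription factors of lysosomal and macrophage genes, 1 rose in SE vs WT (Pparg, a lipid-sensing nuclear receptor, 0.21, edgeR adjusted p = 0.0307), 1 rose in SE vs SA (Tfec, a relative of TFEB found in macrophages, 0.35, edgeR adjusted p = 0.0173) and 0 passed in SA vs WT by edgeR, at an unadjusted p under 0.05 or by DESeq2. The list's median log2 change was 0.04 in SE vs WT, 0.07 in SE vs SA and 0.00 in SA vs WT.

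Among the inhibitors, 5 of 14 listed genes were tested. Cstb (stefin B, an inhibitor of cathepsins in the cytosol) averaged 461 ± 13.6 CPM in SE, 383 ± 8.66 CPM in SA and 403 ± 11.7 CPM in WT. Its SE libraries were above all others, and it rose in SE vs WT by 0.20 and in SE vs SA by 0.27 (edgeR adjusted p = 0.0436 and 0.0035). Cst7 (cystatin F, an inhibitor that acts on cathepsin C) averaged 4.42 ± 0.285 CPM in SE, 3.43 ± 0.201 CPM in SA and 2.63 ± 0.468 CPM in WT, and rose in SE vs WT by 0.77 (edgeR adjusted p = 0.00942). Cst3 (cystatin C, the main secreted inhibitor) did not pass in any comparison. In SA vs WT, edgeR and DESeq2 each called 0 of the 5, and 1 was higher at an unadjusted p under 0.05. The ratio of Ctsl to Cstb counts was 3.95, 3.87 and 4.23 in SE, 3.48, 3.56 and 3.33 in SA, and 4.69, 4.38 and 4.63 in WT, so the 3 genotypes did not overlap. The ratio of Ctsl to Cst3 counts was 1.38, 1.41 and 1.37 in SE, 1.18, 1.24 and 0.992 in SA, and 1.59, 1.23 and 1.49 in WT, where the WT libraries overlapped both mutants.

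Among other members of the family, Lgmn (legumain, an asparaginyl endopeptidase that processes cathepsins) averaged 1667 ± 137 CPM in SE, 1381 ± 92.3 CPM in SA and 1504 ± 155 CPM in WT. It rose in SE vs SA by 0.27 (edgeR adjusted p = 0.0346) and did not pass against WT in either mutant. It was the only one of 5 tested genes of the list to pass. The others were Ctse, Ctso, Ctsw and Napsa, of which Ctsw had 7 to 23 counts.

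Of 17 genes of sorting to the lysosome, Sort1 (sortilin, a receptor that carries some lysosomal proteins from the Golgi) fell in both mutants. It averaged 89.5 ± 8.06 CPM in SE, 93.2 ± 7.07 CPM in SA and 126 ± 3.52 CPM in WT, with log2 changes of -0.49 in SE vs WT and -0.43 in SA vs WT (edgeR adjusted p = 0.000562 and 0.00128). The mannose 6-phosphate receptors M6pr and Igf2r did not pass in any comparison, and M6pr averaged 456, 453 and 452 CPM in SE, SA and WT. Between SE and SA, 2 genes rose in SE, Psap (prosaposin, the precursor of lipid-degrading cofactors, 0.30, edgeR adjusted p = 0.0251) and Snx3 (a sorting nexin, 0.19, edgeR adjusted p = 0.0357). The list's median log2 change was 0.00 in SA vs WT, -0.01 in SE vs WT and -0.03 in SE vs SA.

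Of 19 other lysosomal enzymes and their partner proteins, 2 fell in SA vs WT, among them Galns, a sulfatase of glycosaminoglycan breakdown, by 0.28 on the log2 scale (edgeR adjusted p = 0.0259). In SE vs WT, edgeR and DESeq2 each called 0, and 1 was higher at an unadjusted p under 0.05. In SE vs SA, 3 rose, Gaa (acid alpha-glucosidase, 0.30), Galns (0.28) and Lgmn (edgeR adjusted p = 0.033, 0.0152 and 0.0346), and 1 fell. DESeq2 called 7 of the 19 higher and 1 lower in that comparison, against 635 genes higher and 684 lower in the whole table. Neu1 and Glb1, the partners of Ctsa, did not pass in any comparison. The medians were -0.09 in SA vs WT, -0.06 in SE vs WT and 0.05 in SE vs SA.

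Of 15 genes of the lysosomal membrane and its acidification, Atp6v0d2, a subunit of the proton pump, had 801 ± 82.1 CPM in SE, 577 ± 12.7 CPM in SA and 737 ± 65.0 CPM in WT. It fell in SA vs WT by 0.35 and rose in SE vs SA by 0.47 (edgeR adjusted p = 0.0106 and 0.000564). In SE vs SA, Cd63 (a tetraspanin) and Atp6v1h (a pump subunit) also rose, each by 0.21, and in SE vs WT edgeR called 0 of the 15, with 2 higher at an unadjusted p under 0.05 and 2 called by DESeq2, Cd63 and Atp6v1b2. Of 8 genes of MHC class II processing, 2 rose in SE vs WT, Cd74 (the invariant chain, 0.26) and H2-Aa (0.25), with edgeR adjusted p = 0.0142 and 0.034. In that list only Lgmn passed in SE vs SA, and in SA vs WT edgeR and DESeq2 called 0 genes, with 3 higher at an unadjusted p under 0.05.

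**Figure D5:**
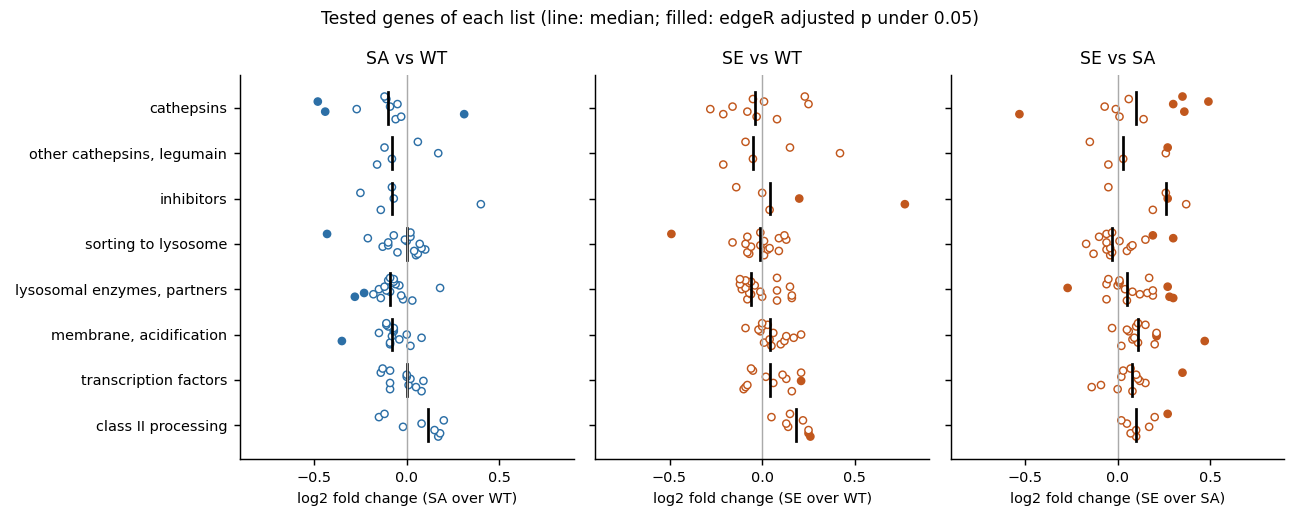
Log2 fold change (x axis) of each tested gene in the cathepsin group and in 7 related lists (rows) for SA vs WT, SE vs WT and SE vs SA; vertical lines are medians and filled points have an edgeR adjusted p under 0.05. In SA vs WT the members range from -0.48 to 0.31, and the medians of the 8 rows lie between -0.10 and 0.11.

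A further list held matrix proteins that cathepsins can cut and genes expressed with Ctsk in osteoclasts. Of 8 tested, 5 rose and 1 fell in SA vs WT, with Col1a1 (a collagen chain) at 19.2 ± 0.928 CPM in SA and 1.39 ± 0.253 CPM in WT. In SE vs WT 3 rose, Col1a1 by 1.59, Fn1 (fibronectin) by 0.96 and Acp5 (an osteoclast phosphatase) by 0.37 on the log2 scale (edgeR adjusted p = 5.67e-05, 0.000142 and 0.0139). In SE vs SA, Acp5 rose by 0.65 and Mmp12 (a macrophage elastase) by 0.46, and 5 fell, Col1a2, Col1a1, Col3a1, Mmp14 and Fn1. Fibroblast and mesothelial markers summed to 5.99–9.95 CPM in SE, 34.2–38.6 CPM in SA and 2.56–3.96 CPM in WT. Of the 10 markers 3 were tested, and Msln, Wt1 and Krt19 were at 0 in every library. Most of each sum was Col1a1 and Col1a2, which are also in the matrix list, so the sum is not separate from it. Dcn and Pdgfra had 0 to 10 and 0 to 6 counts and were not tested. For both, every SA library was above all SE and WT libraries. Dcn averaged 0.403 CPM in SA, 0.051 in SE and 0.035 in WT, and Pdgfra 0.244, 0.036 and 0.029. Lum and Upk3b had 0 to 1 counts. The marker sum was highest in SA, as Ctsc was, while Ctsk was highest in SE and had a log2 change of -0.05 in SA vs WT. Osteoclast markers (4 of 6 tested, Calcr at 0 in every library) summed to 823–973 CPM in SE, 664–685 CPM in SA and 750–879 CPM in WT. Most of this sum was Atp6v0d2, and the others did not all follow it: Dcstamp rose in SA vs WT by 0.39 and fell in SE vs SA by 0.46, while Ocstamp rose in SE vs WT by 0.95 and in SE vs SA by 0.69 (edgeR adjusted p = 0.0107, 0.00187, 5.43e-05 and 0.000429). The part of these cells in the Ctsk and Ctsc values was not tested, and in bulk RNA fewer cells of a type and less RNA per cell cannot be told apart.

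Markers of the cell types in which Ctsc is best known were low. Neutrophil markers (1 of 7 tested, Ly6g and Retnlg at 0 in every library) summed to 1.42–1.57 CPM in SE, 0.764–0.837 CPM in SA and 0.931–1.44 CPM in WT. S100a8, the tested marker, had 4 to 23 counts per library and did not pass in any comparison. The part of such cells in the Ctsc values was not tested. Lymphoid markers (0 of 9 tested, with Cd3e, Ncr1, Nkg7 and Gzmb among those at 0) summed to 0.116–0.157 CPM in SE, 0.306–0.441 CPM in SA and 0.294–0.652 CPM in WT. Mast cell, basophil and eosinophil markers (1 of 7 tested) summed to 16.3–20.98 CPM in SE, 13.8–14.99 CPM in SA and 17.9–20.2 CPM in WT. Nearly all of this sum was Siglecf, the tested marker, at 17.98, 14.4 and 18.6 CPM in SE, SA and WT. Siglecf did not pass in any comparison, and Mcpt4, Tpsb2 and Mcpt8 were at 0. Dendritic cell markers (3 of 6 tested) summed to 1.62–2.04 CPM in SE, 1.99–3.53 CPM in SA and 2.24–2.52 CPM in WT.

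The genes most alike to each called member were ranked by Pearson's r of log2 CPM over the 9 libraries among 9146 genes, as a description in which the libraries and their depth are shared. For Ctsl they were Blnk, Tnfrsf26 and Rhoh (r = 0.987, 0.982 and 0.978). For Ctsd they were Lrpap1, Fcgr3 and Gpnmb (r = 0.987, 0.98 and 0.976), and Gpnmb averaged 18061 CPM in SE, 13092 in SA and 18574 in WT. For Ctsc they were Stard4, Ifit3 and H1f0 (r = 0.968, 0.966 and 0.965). For Ctsk they were Sgf29, Ccdc74a and Atp5l, and for Ctsz Rnf19b, Asna1 and Mcrip2, with r from 0.946 to 0.989.

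Some members share exonic bases with other genes, and the strand setting of the counting is not given in the sources used here, so reads in those bases cannot be told apart by strand. Ctsa shares 495 bases with Pltp (8240 to 13629 counts) and 324 with Neurl2, and Ctsb shares 774 with Fdft1 (506 to 869 counts), all on the opposite strand. Ctsd shares 808 bases with Gm49369 on its own strand, and Ctsl shares 1742 with Gm47123 and 395 with Gm49230, all of which had 0 counts in every library. These 0 counts do not show how reads in the shared bases were assigned, or whether the levels of Ctsd and Ctsl lost any.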

How the data were processed

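Gene-level read counts of 9 poly(A) libraries (3 each of SE, SA and WT) were used as the authors deposited them. HISAT2 2.1.0, featureCounts and the mm10 build are named, without their roles, in the submitters' processing notes. The sources used here give neither the annotation release nor how strand and multimapping reads were treated. Of 55401 Ensembl IDs, 55141 matched GENCODE M21 and gave symbols and positions. Library totals were 17286617 to 24618608 counts; precision from depth covers counting error only.

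An edgeR 4.0.16 fit (R 4.3.3) held the 9 libraries (filterByExpr with minimum count 10 and minimum total 15, TMM, robust quasi-likelihood, genotype as the only factor, 6 residual degrees of freedom), leaving 13501 genes with a biological coefficient of variation of 6.75%. The 2-sided tests were adjusted by Benjamini-Hochberg over all tested genes and called under 0.05. The script was tested on simulated data. The members and gene lists were chosen with earlier results of these data known. Named were all members, fixed lysosomal genes, up to 3 called genes per list with the largest change, and the 3 genes most alike to each called member (mean of at least 5 CPM). Alternatives were library-total or median-ratio scaling, no filter, DESeq2 1.42.0, the 2 groups alone, the replicate block and libraries left out. Some genes that this rule names are not reported here.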

Additional observations from a re-analysis of the deposited data

How the results depend on the processing

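Over 17 alternatives, 463 of the members' log2 changes kept their direction and side of the threshold. The 16 calls lost and 5 gained belonged to Ctsc, Ctsk and Ctsz, as given above. The 26 changes of sign were in comparisons where the member was not called, and their cause was not tested. Scaling by library totals gave -0.0072 for Ctsl in SE vs WT and -0.0392 for Ctsb in SE vs SA. Leaving out WT2 and SE3 gave 0.0054, 0.0074 and 0.0235 for Ctsa, Ctsb and Ctsz in SA vs WT, -0.0158 for Ctsl in SE vs WT, and -0.0271 and 0.0065 for Ctsb and Ctsf in SE vs SA. Leaving out WT1 and SE2 gave -0.0064 and 0.0473 for Ctsb and Ctsf in SE vs SA. Leaving out each library in turn gave ranges in SA vs WT of -0.1149 to 0.0034 for Ctsa, -0.0724 to 0.0054 for Ctsb, -0.0856 to 0.0177 for Ctsk and -0.222 to 0.0216 for Ctsz. In SE vs WT the ranges were -0.0585 to 0.0117 for Ctsb and -0.0061 to 0.0246 for Ctsl. In SE vs SA they were -0.0259 to 0.044 for Ctsb and -0.0838 to 0.0523 for Ctsf.

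Members called in SE vs SA numbered 5, against 3 with scaling by library totals and 3 to 5 with a library left out (3 without SA1, SA2, SE1 or SE3). Those called in SE vs WT numbered 0, against 2 with no filter, 1 without WT2 and SE3, and 0 to 2 with a library left out. Over all genes, calls in SE vs WT numbered 680, against 438 with only those 2 groups, 1215 without WT2 and SE3, 372 without WT1 and SE2, and 292 to 1097 with a library left out, the last without WT2. In SA vs WT they numbered 549, against 903 without WT2 and SE3 and 297 to 652 with a library left out. In SE vs SA they numbered 1376, against 1903 without WT2 and SE3 and 781 to 1762 with a library left out. Same-numbered libraries did not deviate together (correlations of -0.19 to 0.10). The sources used here do not say whether the numbers pair libraries, and these correlations cannot settle it. With the replicate number as a block the all-gene calls were 500, 568 and 1189, and the block changed no member's call.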

Other observations

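Several relatives of the cathepsins were at or near 0. The placental cathepsins Ctsj, Ctsm, Ctsq, Ctsr, Cts3, Cts6, Cts7 and Cts8, and Ctsll3, had 0 counts in all 9 libraries, which at these totals allows up to 0.122 to 0.174 CPM per library (3 counts). Ctsg, the granule protease of neutrophils, had 0 to 1 counts. Among inhibitors the stefins Stfa1, Stfa2, Stfa3 and Stfa2l1 and the cystatin Cst8 had 0 counts in every library, and Cst6 had 0 to 5 counts. Ctla2a, related to the propeptide of cysteine cathepsins, had 31 to 61 counts and Ctla2b had 4 to 9.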
